A study of Homo sapiens with 6 samples.

Results

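The aminoacyl-tRNA synthetase genes are described here in an oral squamous cell carcinoma line cultured under low oxygen. They were chosen by name from a list of 36 gene symbols, all of which were found among the 21776 genes in the count table. Of these, 18 encode enzymes of the cytosol, 16 encode enzymes of the mitochondrion, and 2 (GARS1 and KARS1) encode both forms of their enzyme. The enzymes that charge aspartate tRNAs are not on the list and are not analysed here. The libraries are labelled as SCC25, an established human oral squamous carcinoma line of wild-type genotype, whereas a legend in the study names SCC9 for its transcript analysis under hypoxia. In the hypoxia group, 3 libraries came from cells kept for 12 h in a tri-gas incubator at 1% O2, 5% CO2 and balance N2. In the normoxia group, 3 libraries came from cells kept for 12 h in humidified air with 5% CO2. The hypoxia libraries 1, 2 and 3 hold 30186813, 36076088 and 32272716 counts, and the normoxia libraries 1, 2 and 3 hold 37278703, 29637189 and 29981208. Nothing in the labels says whether the replicates were separate cultures, so the p-values measure the spread between these libraries, which may be technical.

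Synthetases attach amino acids to their tRNAs, in most cases 1 kind of amino acid per enzyme, and the ribosome cannot use an amino acid until this has happened. Human cells keep separate sets of enzymes for the cytosol and for the mitochondrion, both encoded in the nucleus. The mitochondrial set serves the translation of the few respiratory chain subunits encoded by mitochondrial DNA. Several cytosolic enzymes are held together in a multi-synthetase complex by the scaffold proteins AIMP1, AIMP2 and EEF1E1. Many cytosolic synthetase genes are known targets of ATF4, the transcription factor of the amino acid response, and of MYC.

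The labels were checked against marker genes. CA9, a carbonic anhydrase gene induced by the hypoxia-inducible factors, had 262, 277 and 293 CPM (counts scaled to a common library total after TMM normalization) under hypoxia against 32.2, 27.3 and 67.7 CPM under normoxia. Every hypoxia library was thus above every normoxia library, and normoxia replicate 3 was the highest of its group. Of 9 squamous epithelial markers, KRT14 was at 0, 0 and 0 counts under hypoxia and 0, 1 and 0 under normoxia, while KRT5, TP63, SFN, PERP and CDH1 were all above 50 CPM in each library. Of the 8 of these markers that were tested, KRT17, DSG3, PERP and CDH1 were higher under hypoxia, KRT5, KRT6A and SFN were lower, and TP63 did not pass the threshold. The change was largest in KRT6A, with 18, 28 and 49 counts under hypoxia and 695, 537 and 356 counts under normoxia, while KRT17 was at 15.6 to 18.4 CPM against 7.88 to 8.53 CPM and DSG3 at 10.5 to 12.4 CPM against 3.98 to 5.10 CPM. Of 3 immune markers in the table, PTPRC and CD3E were at 0 to 2 counts, and CD68, which cancer lines can also express, was at 27.3 to 34.2 CPM in both groups. Some markers of other cell types were higher under hypoxia at low levels. COL1A1, the most abundant of 6 fibroblast markers, rose from 2.73 to 5.04 CPM up to 15.96 to 20.01 CPM, while the other 5 stayed below 1 CPM in every library. Of 3 endothelial markers, CDH5 was at 28 to 34 counts under hypoxia and 9 to 22 under normoxia, PECAM1 at 5 to 10 and 0 to 2, and VWF at 4 to 10 and 0. The part of these genes in the results was not tested.

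Most synthetase genes were lower under hypoxia. By edgeR's quasi-likelihood test over the 14255 genes that passed the filter on low counts, 27 of the 36 genes were lower, 1 was higher and 8 did not pass an adjusted p-value of 0.05. All 36 genes passed the filter. The background is wide, since 77.8% of all tested genes passed this threshold, 38.5% as lower and 39.2% as higher. With a log2-fold change beyond 1 also required, 5 of the 36 genes were lower and 0 higher, against 10.5% lower, 19.9% higher and 30.4% in either direction among all tested genes. The synthetase genes had a median log2-fold change of -0.55, against 0.023 for all tested genes. The groups did not overlap in 29 of the 36 genes, 28 of them lower and 1 higher under hypoxia, against 80.5% of all tested genes, 39.9% lower and 40.6% higher. CPM are shares of the library, so a fall in a gene and a rise in the RNA of other genes cannot be told apart. Less RNA of a gene per cell and fewer cells carrying it cannot be told apart either.

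**Figure D1:**
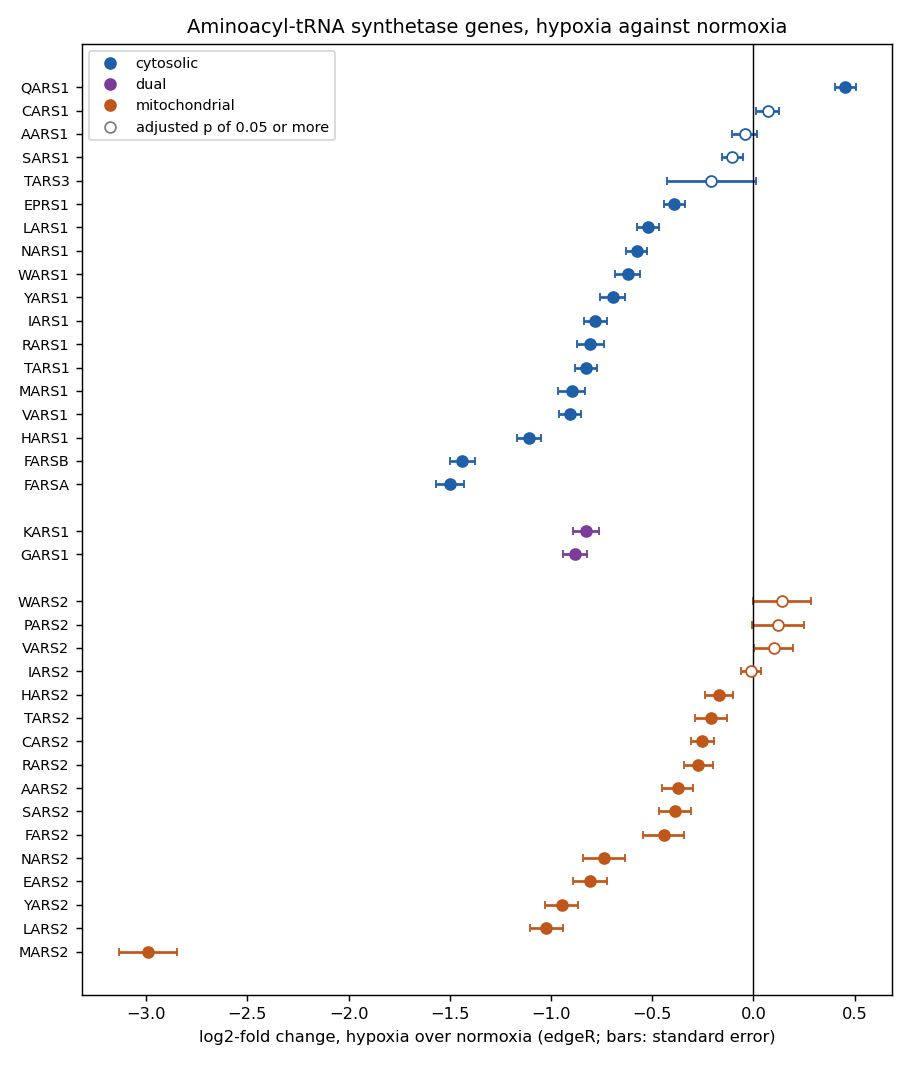
Log2-fold change of each of the 36 synthetase genes (horizontal axis, hypoxia over normoxia, edgeR, n = 3 libraries per group; bars are standard errors; open points did not pass the threshold) with the cytosolic, dual and mitochondrial enzymes in separate blocks. QARS1 at 0.45 is the single filled point to the right of 0, FARSA and FARSB are the lowest cytosolic genes, and MARS2 at -2.99 is the lowest of all.

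Among the cytosolic enzymes, 13 of 18 genes were lower and 1 was higher, beside 38.5% and 39.2% of all tested genes. The other 4 did not pass the threshold, and all 18 together had a median log2-fold change of -0.66. The largest decreases were those of FARSA and FARSB, which encode the catalytic and the partner subunit of phenylalanyl-tRNA synthetase. FARSA had 57.6, 51.4 and 52.4 CPM under hypoxia and 162, 159 and 136 CPM under normoxia, in the order of the replicate numbers. FARSB had 54.4, 51.3 and 55.4 CPM under hypoxia and 149, 153 and 134 CPM under normoxia. The groups did not overlap in either gene, and both subunits fell by almost the same factor. Their log2-fold changes were -1.50 (standard error 0.070, adjusted p = 3.47e-12) and -1.44 (standard error 0.062, adjusted p = 1.32e-12). On the FPKM scale, which divides by gene length, the log2 ratio of FARSA to FARSB was 2.35 ± 0.081 (SD, n = 3) under hypoxia and 2.41 ± 0.051 (SD, n = 3) under normoxia. This difference was smaller than the SD of the hypoxia libraries and larger than that of the normoxia libraries. HARS1, which charges histidine tRNAs, came next, with 68.9, 64.1 and 66.9 CPM under hypoxia and 146, 152 and 133 CPM under normoxia. Its log2-fold change was -1.11 (standard error 0.060, adjusted p = 2.05e-11).

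QARS1, which encodes glutaminyl-tRNA synthetase, was the 1 gene that rose in this fit. It had 260, 255 and 264 CPM under hypoxia and 184, 187 and 198 CPM under normoxia. The groups did not overlap, and the log2-fold change was 0.45 (standard error 0.051, adjusted p = 3.18e-07). QARS1 was the 7th most abundant synthetase gene by mean FPKM under normoxia, at 76.1 ± 3.28 FPKM, and the most abundant under hypoxia, at 108 ± 0.689 FPKM (SD, n = 3).

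In 4 cytosolic genes the test was not passed. CARS1, for cysteine, had 89.9, 81.0 and 82.6 CPM under hypoxia and 80.4, 78.8 and 82.1 CPM under normoxia (log2-fold change 0.070, standard error 0.057, adjusted p = 0.265). With at least 10 counts in each library as the filter it was called as higher (log2-fold change 0.15, adjusted p = 0.0232). AARS1, for alanine, had 222, 186 and 197 CPM under hypoxia and 208, 207 and 209 CPM under normoxia (log2-fold change -0.043, standard error 0.061, adjusted p = 0.523). The hypoxia libraries of AARS1 lay on both sides of the normoxia libraries, and those of CARS1 overlapped with normoxia. SARS1, for serine, had 94.0, 93.5 and 97.9 CPM under hypoxia and 102, 104 and 101 CPM under normoxia, without overlap (log2-fold change -0.10 with a standard error of 0.052, adjusted p = 0.0787). Without normoxia replicate 3 its adjusted p was 0.0338. TARS3, a second cytosolic threonyl-tRNA synthetase, had 81, 89 and 107 counts under hypoxia and 135, 103 and 70 counts under normoxia (log2-fold change -0.21, adjusted p = 0.398), and its standard error of 0.22 was the largest of the 36 genes.

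The other 10 cytosolic genes that fell had log2-fold changes from -0.91 to -0.39. VARS1 (valine) and MARS1 (methionine) were at the far end, at -0.91 and -0.90, and EPRS1 at the near end. EPRS1 encodes a fused enzyme that charges both glutamate and proline tRNAs, and had 205, 205 and 201 CPM under hypoxia against 258, 277 and 265 CPM under normoxia. Between them lay TARS1, RARS1, IARS1, YARS1, WARS1, NARS1 and LARS1, for threonine, arginine, isoleucine, tyrosine, tryptophan, asparagine and leucine. None of these genes had overlapping groups.

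Both genes that encode a cytosolic and a mitochondrial form fell, beside 38.5% lower among all tested genes. GARS1, for glycine, had 271, 245 and 255 CPM under hypoxia and 480, 499 and 440 CPM under normoxia (log2-fold change -0.88 with a standard error of 0.058, adjusted p = 2.76e-10). KARS1, for lysine, had 179, 176 and 181 CPM under hypoxia and 318, 346 and 285 CPM under normoxia (log2-fold change -0.83 with a standard error of 0.063, adjusted p = 1.73e-09). Under normoxia they ranked 1 and 3 among the synthetase genes in level per length, and the groups overlapped in neither gene.

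Among the mitochondrial enzymes, 12 of 16 genes were lower and 0 were higher, beside 38.5% and 39.2% of all tested genes. The other 4 did not pass the threshold. The count of 0 came from edgeR, where 0 were higher also at an unadjusted p below 0.05, and the DESeq2 Wald test called 0 as higher. The 16 mitochondrial genes had a median log2-fold change of -0.32, nearer to 0 than the -0.66 of the cytosolic enzymes. The ranges were from -2.99 to 0.14 and from -1.50 to 0.45. The difference between the medians was not tested.

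MARS2, the mitochondrial methionyl-tRNA synthetase gene, had the largest decrease of all 36 genes. It had 85, 120 and 70 counts under hypoxia and 785, 708 and 576 counts under normoxia. After normalization this was 2.78, 3.23 and 2.16 CPM against 21.1, 24.7 and 19.5 CPM. The highest hypoxia library was far below the lowest normoxia library, and the mean level fell by 87.5% (log2-fold change -2.99 with a standard error of 0.14, adjusted p = 5.29e-12). The next were LARS2 and YARS2, for leucine and tyrosine. LARS2 had 28.5, 23.3 and 24.3 CPM under hypoxia and 48.9, 55.9 and 49.5 CPM under normoxia (log2-fold change -1.02, standard error 0.081, adjusted p = 3.32e-09). YARS2 had 14.2, 14.1 and 15.3 CPM under hypoxia and 28.1, 28.8 and 27.1 CPM under normoxia (log2-fold change -0.95, standard error 0.082, adjusted p = 1.05e-08). The groups were apart in both genes. LARS2 lay close to the threshold of 1, at -0.97 without hypoxia replicate 2, -0.998 without hypoxia replicate 3 and -0.97 without normoxia replicate 2.

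EARS2 (glutamate), NARS2 (asparagine), FARS2 (phenylalanine), SARS2 (serine), AARS2 (alanine), RARS2 (arginine), CARS2 (cysteine), TARS2 (threonine) and HARS2 (histidine) also fell, by 0.17 to 0.81 on the log2 scale. HARS2 and TARS2 were the smallest of these decreases, at -0.17 (adjusted p = 0.0341) and -0.21 (adjusted p = 0.0249), and neither call held in all fits without one library. The adjusted p of HARS2 was 0.0913 without hypoxia replicate 2, 0.0592 without hypoxia replicate 3 and 0.121 without normoxia replicate 2. That of TARS2 was 0.0621 without hypoxia replicate 1 and 0.0872 without normoxia replicate 3. Both calls were also lost with at least 10 counts in each library and by limma on FPKM with its filter. The call of HARS2 was lost with the replicate number as a block as well.

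The 4 mitochondrial genes that did not pass had the log2-fold changes nearest to 0 in size of their group. WARS2, for tryptophan, had 5.63, 7.02 and 6.75 CPM under hypoxia and 5.67, 6.47 and 5.51 CPM under normoxia (log2-fold change 0.14, standard error 0.14, adjusted p = 0.379). PARS2, for proline, had 8.02, 7.37 and 6.87 CPM under hypoxia and 6.64, 6.78 and 7.06 CPM under normoxia (log2-fold change 0.12, standard error 0.13, adjusted p = 0.399). VARS2, for valine, had 17.8, 16.4 and 17.2 CPM under hypoxia and 15.8, 14.4 and 17.7 CPM under normoxia (log2-fold change 0.10, standard error 0.098, adjusted p = 0.353). In all of these the groups overlapped. IARS2, for isoleucine, was the most abundant of the mitochondrial genes and among the most evenly expressed, with 179, 177 and 186 CPM under hypoxia and 178, 184 and 184 CPM under normoxia (log2-fold change -0.012, standard error 0.050, adjusted p = 0.84).

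**Figure D2:**
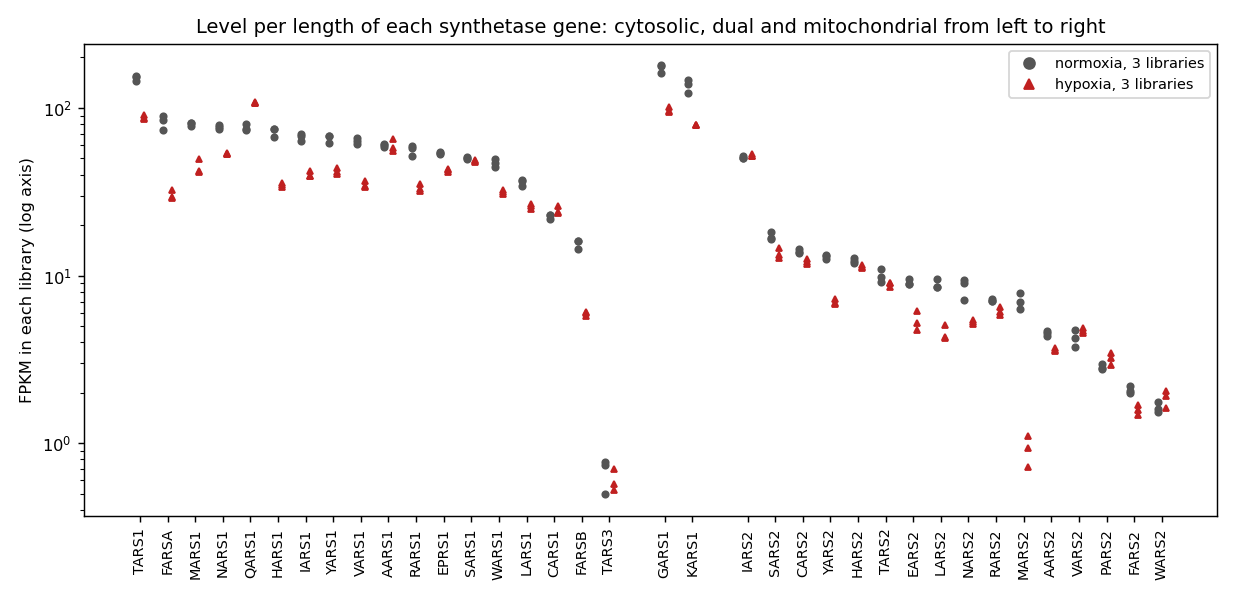
FPKM of each synthetase gene (vertical log axis) in each of the 6 libraries, with circles for normoxia and triangles for hypoxia, ordered by the normoxia mean within the cytosolic, dual and mitochondrial blocks. Most cytosolic genes lie between 20 and 160 FPKM and most mitochondrial genes below 20, with IARS2 near 50, FARSB below 20 and TARS3 below 1 as exceptions.

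Levels were compared between genes on the FPKM scale, which the authors scaled by a gene length and the library total. Under normoxia the order was led by GARS1 at 173 ± 10.1, TARS1 at 150 ± 4.84 and KARS1 at 136 ± 11.8 FPKM (SD, n = 3), and the libraries of TARS1 and KARS1 overlapped. The median level was 61.4 FPKM over the 18 cytosolic genes and 8.69 FPKM over the 16 mitochondrial genes under normoxia, and 37.5 and 5.33 FPKM under hypoxia. IARS2 stood apart from the other mitochondrial genes, at 50.7 ± 0.646 FPKM under normoxia against 17.1 ± 0.859 for SARS2, the next in order. TARS3 was last, at 0.667 ± 0.149 FPKM. FARSB is listed with a length of 9202 bases against 1811 for FARSA, so its level per length depends on which transcripts were counted in that length. Summed over the genes, the cytosolic enzymes had 771, 728 and 741 FPKM under hypoxia and 1098, 1093 and 1035 FPKM under normoxia, a fall of the mean by 30.6%. The mitochondrial enzymes together had 142, 140 and 143 FPKM under hypoxia and 173, 175 and 171 FPKM under normoxia, a fall by 18.01%. IARS2, which did not pass the threshold, made up 51.9 of the mean of 142 FPKM under hypoxia and 50.7 of the mean of 173 FPKM under normoxia. The sums of the 2 dual genes fell by 42.9%. Normoxia replicate 3, which had the highest CA9 of its group, also had the lowest sums of its group. The part of this library in the result was not tested beyond leaving it out, where 26 to 27 of the 36 genes were lower in each of the 6 fits without one library.

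The cytosolic and mitochondrial enzymes were next compared within an amino acid, for 13 of the amino acids with a gene of each kind on the list. Phenylalanine (FARSA and FARSB, with FARS2), glutamate and proline (EPRS1, with EARS2 and PARS2) also have both kinds and were left out. TARS1 stood for the cytosolic enzyme of threonine, and TARS3 was left out of the pairs. The log2 ratio of their FPKM was taken in each library, so that the library size drops out. Under normoxia the cytosolic gene was the higher of the pair for all 13 amino acids, and under hypoxia for 12, the exception being isoleucine. For 6 amino acids all hypoxia ratios lay below all normoxia ratios, for 6 they lay above, and for 1 the groups overlapped. The groups did not overlap in 80.5% of single tested genes, and the share over other gene pairs was not computed. A two-sided exact permutation test of 3 libraries against 3 cannot give a p below 0.1, and each of the 12 pairs without overlap had p = 0.1 (0.108 after Benjamini-Hochberg adjustment over the 13 pairs). The ratios thus had no common direction across amino acids.

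Of the 13 pairs, that of methionine moved furthest toward the cytosolic gene. The log2 ratio of MARS1 to MARS2 was 5.74, 5.23 and 5.88 under hypoxia and 3.55, 3.36 and 3.61 under normoxia, a difference of 2.11, although MARS1 itself fell. Leucine, alanine, cysteine, serine and tyrosine also had higher ratios under hypoxia, with differences of 0.50 down to 0.25. Of the 13 pairs, the valine pair moved furthest toward the mitochondrial gene, with a difference of -1.01. Its log2 ratio of VARS1 to VARS2 was 2.91, 2.88 and 2.88 under hypoxia and 3.95, 4.07 and 3.69 under normoxia. Histidine, isoleucine, tryptophan, threonine and arginine followed, at -0.94, -0.77, -0.75, -0.62 and -0.53. Phenylalanine was not among the pairs, and FARSA and FARS2 had log2-fold changes of -1.50 and -0.44. For isoleucine the log2 ratio of IARS1 to IARS2 crossed 0, from 0.47, 0.43 and 0.29 under normoxia to -0.28, -0.39 and -0.44 under hypoxia. The asparagine pair overlapped between the groups (difference 0.15, exact permutation test, p = 0.4). In 7 of the 13 pairs both genes were called as lower. Of single tested genes 38.5% were lower, which is not a share of pairs, and none was computed for other gene pairs.

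**Figure D3:**
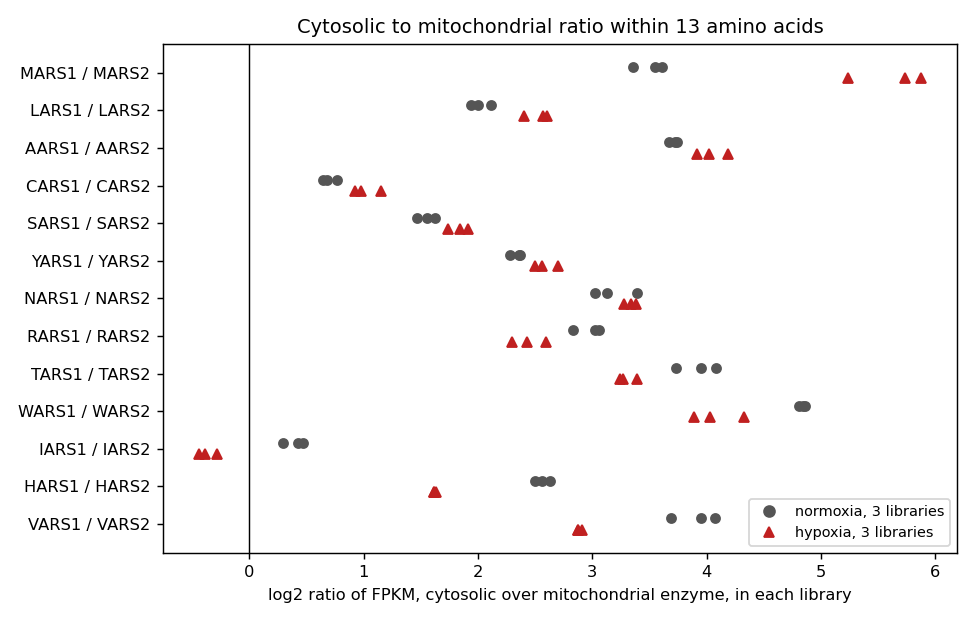
Log2 ratio of FPKM of the cytosolic over the mitochondrial enzyme (horizontal axis) for 13 amino acids, with circles for the 3 normoxia and triangles for the 3 hypoxia libraries. The triangles lie to the right of the circles for 6 pairs, led by MARS1 over MARS2, and to the left for 6 pairs, led by VARS1 over VARS2, and only the isoleucine pair falls below 0.

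Groupings that cut across the compartments were also described. The synthetases form 2 structural classes with unrelated catalytic folds. Of the 19 class I genes, 14 were lower and 1 was higher (median log2-fold change -0.62), and of the 17 class II genes, 13 were lower and 0 were higher (median -0.44), both beside 38.5% lower among all tested genes. Of the 7 listed enzymes of the multi-synthetase complex (EPRS1, IARS1, LARS1, QARS1, MARS1, KARS1 and RARS1), 6 were lower and QARS1 was higher (median -0.78). The 13 other cytosolic and dual genes had a median of -0.70, with 9 lower. Of the 13 genes listed as ATF4 targets, 10 were lower and 0 were higher (median -0.62). AARS1, CARS1 and SARS1, which did not pass the threshold, are all in this list. The other 7 cytosolic and dual genes had a median of -0.83, with 5 lower and QARS1 higher.

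Because both the genes that fell and those that did not pass the test include ATF4 targets, the promoters were searched for its known site. RefSeq promoter windows of GRCh38.p14 (250 bases before to 50 after the start of each gene) were found for 30 of the 36 genes. The windows of AARS2, LARS1, TARS3, VARS1, VARS2 and YARS1 were not used here. The letters of the C/EBP-ATF response element, TGATGNAA on either strand, were in 7 of the 30 windows, against 3.67% of all 27305 windows and 1.69% of the 11412 windows of tested genes. In the 250 bases before the start alone they were in 3 of the 30, against 1.40% of those of tested genes. The matches of 6 cytosolic genes share the same 8 letters, TTGCATCA or its reverse complement, and they are printed with 10 bases on each side, 5′ to 3′ on the strand of the gene, with the match in capitals. The match of YARS2 differs from them and is shown for comparison.
AARS1: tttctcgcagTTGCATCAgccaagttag
CARS1: ggggcggcggTTGCATCAgattctagga
IARS1: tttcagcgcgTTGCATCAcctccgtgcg
MARS1: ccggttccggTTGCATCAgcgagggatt
NARS1: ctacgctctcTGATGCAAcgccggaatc
TARS1: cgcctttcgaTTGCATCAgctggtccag
YARS2: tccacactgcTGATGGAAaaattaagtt

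These stretches lie at chr16:70289676-70289703 (minus strand) for AARS1, chr11:3057408-3057435 (minus) for CARS1, chr9:92293693-92293720 (minus) for IARS1 and chr12:57488054-57488081 (plus) for MARS1. Those of NARS1, TARS1 and YARS2 lie at chr18:57621805-57621832 (minus), chr5:33440957-33440984 (plus) and chr12:32756077-32756104 (minus). The cytosolic matches other than that of AARS1 lie within 21 bases of the annotated start, and that of AARS1 begins 187 bases before it. The 6 cytosolic genes with the match did not move together, with AARS1 and CARS1 at log2-fold changes of -0.043 and 0.070, and NARS1, IARS1, TARS1 and MARS1 at -0.58, -0.78, -0.83 and -0.90. A match is a description of letters in a window, not evidence that the factor bound there.

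The core letters of the hypoxia response element, ACGTG on either strand, were in 8 of the 30 windows (26.7%), against 26.5% of the windows of tested genes, a share near that of the rest. The 8 genes were CARS2, EARS2, EPRS1, IARS1, MARS2, NARS2, TARS2 and WARS1, all of them lower under hypoxia, as were 27 of all 36 synthetase genes, so nothing about the letters follows from this count. The E-box CACGTG, the site of MYC and its partners, contains ACGTG and was in 4 of the 30 windows (13.3%, against 9.85% of those of tested genes). One of these was MARS2, the gene with the largest decrease, where the E-box starts 11 bases before the annotated start. Its upstream 120 bases, at chr2:197705249-197705368 (plus strand, GRCh38.p14), are shown with the E-box in capitals, and the E-boxes of EARS2, IARS1 and CARS2 below it with 10 bases on each side.
MARS2: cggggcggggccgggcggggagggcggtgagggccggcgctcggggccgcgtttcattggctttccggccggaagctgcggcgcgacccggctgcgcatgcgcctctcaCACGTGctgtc
EARS2: gggagaagccCACGTGtgctattcca
IARS1: gttcgttttcCACGTGgaggcgcaaa
CARS2: ctgggatgcaCACGTGcttcgctaac

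The E-box stretches of EARS2, IARS1 and CARS2 lie at chr16:23557350-23557375, chr9:92293868-92293893 and chr13:110706503-110706528, all on the minus strand. The 4 genes fell by 0.25 (CARS2), 0.78 (IARS1), 0.81 (EARS2) and 2.99 (MARS2) on the log2 scale.

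All 3 scaffold genes of the multi-synthetase complex fell, beside 38.5% lower among all tested genes. AIMP2 had 43.5, 40.8 and 41.8 CPM under hypoxia and 149, 164 and 137 CPM under normoxia (log2-fold change -1.84, standard error 0.066, adjusted p = 1.85e-13). EEF1E1 had 84, 105 and 105 counts under hypoxia and 335, 290 and 270 counts under normoxia, and its log2-fold change was -1.68 (standard error 0.15, adjusted p = 1.01e-08). AIMP1 fell less, at -0.53 (standard error 0.060, adjusted p = 3.48e-07). The decreases of AIMP2 and EEF1E1 were larger in size than those of the 6 enzymes of the complex that fell, a difference that was not tested.

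Of 8 tested genes for editing and specialised charging, 7 fell and 1 rose, beside 38.5% lower and 39.2% higher among all tested genes. SEPSECS and PSTK, which act in turn to make selenocysteine on its tRNA, went in opposite directions, at log2-fold changes of 1.17 (adjusted p = 4.93e-06) and -1.48 (adjusted p = 6.19e-05). DTD2, which removes wrongly attached amino acids, and MTFMT, which formylates the initiator methionine of mitochondria after MARS2 has charged its tRNA, fell by 1.19 and 1.02 on the log2 scale. QRSL1, GATB and GATC, the subunits of the enzyme that makes mitochondrial glutaminyl-tRNA, fell by 0.69, 0.23 and 0.50. AARSD1 is on this list and has no row in the count table.

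Nearly all listed genes that make tRNAs were lower under hypoxia. Of 19 tRNA maturation genes, 18 fell, 0 rose and TSEN34 did not pass the threshold (median log2-fold change -1.02), beside 38.5% lower and 39.2% higher among all tested genes. Large decreases were those of POP1 (-2.19) and RPP40 (-2.05), subunits of RNase P, and of TRMT10C (-1.56), of mitochondrial RNase P. Of 18 genes of RNA polymerase III and its factors, 15 fell, 0 rose and BRF1, GTF3C3 and MAF1 did not pass the threshold (median -0.86), beside the same shares of all tested genes. POLR3K, POLR3G and POLR3B, subunits of the polymerase, had log2-fold changes of -2.12, -2.11 and -1.51. MAF1, the repressor of this polymerase, was at -0.11 (adjusted p = 0.0663). In both lists 0 genes were higher by edgeR, also at an unadjusted p below 0.05, and by DESeq2, but 1 RNA polymerase III gene was higher by edgeR with at least 10 counts in each library.

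The elongation factors act at the next step of translation. Of 8 cytosolic elongation genes, 5 rose (62.5%) and 3 fell (37.5%), beside 39.2% higher and 38.5% lower among all tested genes. EEF1A1, the factor that carries charged tRNAs to the ribosome, had 14301, 14096 and 14823 CPM under hypoxia and 9518, 9616 and 9895 CPM under normoxia (log2-fold change 0.57, standard error 0.050, adjusted p = 1.08e-08). Its isoform EEF1A2 rose by 1.23 and EEF2 by 0.67, whereas EIF5A fell by 1.21 on the log2 scale. Of 10 mitochondrial translation factors, 7 fell (70%) and MTIF3 rose (10%), at a median of -0.44. The largest decreases among them were those of GFM1 (-0.95), MTIF2 (-0.78) and TSFM (-0.74).

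**Figure D4:**
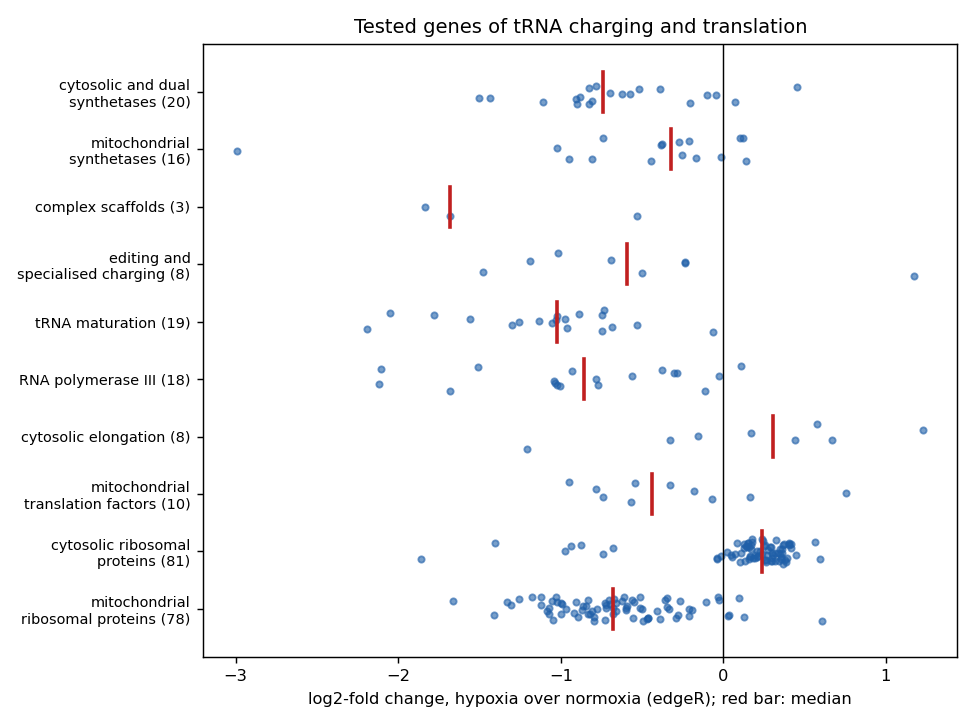
Log2-fold change (horizontal axis, hypoxia over normoxia, edgeR) of each tested gene of 10 lists, with the number of genes in brackets and the median as a red bar. The synthetase lists, tRNA maturation, RNA polymerase III and mitochondrial ribosomal proteins have medians below 0, and the cytosolic elongation factors and cytosolic ribosomal proteins have medians above 0.

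The ribosomal protein genes gave a reference in each compartment. Of 78 tested genes named MRPL or MRPS, for the mitochondrial ribosome, 69 fell and 1 rose (median log2-fold change -0.68). Of 81 tested genes named RPL or RPS, for the cytosolic ribosome, 62 rose and 7 fell (median 0.24). Among all tested genes 38.5% were lower and 39.2% higher. The mitochondrial synthetases, with 12 of 16 lower and a median of -0.32, had the same sign as the mitochondrial ribosomal proteins. The cytosolic synthetases, with 13 of 18 lower and a median of -0.66, had the sign opposite to that of the cytosolic ribosomal proteins. These differences were described only and not tested.

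Of 23 tested genes of the amino acid response, 11 fell (47.8%) and 7 rose (30.4%), at a median of -0.13. Of all tested genes 38.5% fell and 39.2% rose, and the difference between these shares was not tested. ATF4 had 366, 340 and 364 CPM under hypoxia and 332, 340 and 341 CPM under normoxia (log2-fold change 0.078, adjusted p = 0.165), and the groups overlapped. These are RNA values, which do not give the amount or activity of the ATF4 protein. ASNS, asparagine synthetase and a standard ATF4 target, was low in all libraries at 2.26 to 2.66 CPM (log2-fold change -0.13, adjusted p = 0.583). SLC7A11, the cystine transporter, and ATF5 fell by 3.31 and 2.02 on the log2 scale, and DDIT4, also a target of the hypoxia-inducible factors, rose by 3.74. NUPR1 rose from 4, 1 and 4 counts to 48, 64 and 31 counts.

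Exons shared with neighbouring genes limit some of these values, because the counting is not stated to use strand. In GENCODE v29, VARS2 shares 1858 exonic bases on the same strand with GTF2H4, 21.99% of its exonic length, and SARS2 shares 1492 with a gene model that has no row in the table. SARS2 also shares 349 bases with MRPS12 on the opposite strand, which fell by 1.33 from 48.7 CPM, above the 34.9 CPM of SARS2 under normoxia. HARS1 and HARS2 lie on opposite strands and share 437 bases, 11.7% of HARS2. HARS1 fell by 1.11 on the log2 scale from 144 CPM, above the 34.8 CPM of HARS2 under normoxia. GARS1-DT, which shares 99 bases with GARS1 on the opposite strand, rose by 1.94, against the direction of GARS1. The part of shared reads in these results was not tested. MARS2, LARS2, YARS2, FARSB and TARS1 share no exonic base with another gene of that annotation.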

How the data were processed

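RNA was sequenced from 3 hypoxia and 3 normoxia libraries (SMARTER mRNA-Seq kit), grouped by their titles. The authors deposited whole-number counts per gene without normalization, and FPKM, which scale counts by gene length and library total. The count columns carry the name hnscc where the titles have SCC25. For the 36 synthetase genes the FPKM equal counts over a gene length and the library total. The labels name the mouse builds GRCm38 and mm10 although the genes carry human symbols. The aligner, counter and annotation are not given in the sources used here. From the counts, edgeR 4.0.16 (R 4.3.3) was run with TMM, filterByExpr and the quasi-likelihood test, adjusted over 14255 genes by Benjamini-Hochberg, with calls at 0.05. The standard error is the size of the log2-fold change over the root of F. Replicates differed by more than counting noise (chi-square per gene 5.11 to 11.5). Totals of 29637189 to 37278703 counts put the floor of 3 counts at 0.0806 to 0.105 CPM. Alternatives were DESeq2 1.42.0, its size factors, other filters, a replicate block, limma 3.58.1 on log2(FPKM + 1) or log2(FPKM + 0.1) above a mean FPKM of 1 or without this filter, and each library left out. The members and lists were chosen with earlier results of these data known. All 36 genes are named. Values per library are given for the 3 highest and 3 lowest log2-fold changes of each compartment and for both dual genes. They are also given for the pairs with the largest ratio changes and, chosen with their values known, SARS1, TARS3, EPRS1 and IARS2. Up to 4 genes of each other list are named by size of change, with ATF4, ASNS and the scaffolds, and some genes that this would name are not reported here. Other members of those lists (such as TSEN34, BRF1, GATB and GATC) were chosen for naming once their values were known. The tables hold 0 columns of other samples.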

Additional observations from a re-analysis of the deposited data

How the results depend on the processing

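The 27 lower synthetase genes were 25 with at least 10 counts and by limma on log2(FPKM + 1) or log2(FPKM + 0.1), where the 12 mitochondrial genes were 10, by the loss of HARS2 and TARS2, and the 13 cytosolic genes remained 13. They were 26 by DESeq2 (11 mitochondrial), 26 by limma without the FPKM filter (11 mitochondrial), 28 without a count filter (14 cytosolic), and 26 to 27 with one library left out (13 to 14 cytosolic, 11 to 12 mitochondrial). At a log2-fold change below -1, 1 in place of 2 mitochondrial genes passed with a minimum of 10 counts per library and in the 3 limma fits to FPKM, and 1 to 2 with one library left out (1 without replicate 2 or 3 of hypoxia or replicate 2 of normoxia), as LARS2 lies near that threshold. The filter of 10 counts, which moved shared genes up by a median of 0.077, gave 2 higher synthetase genes in place of 1 (CARS1 added) and 1 higher RNA polymerase III gene in place of 0. All tested genes called beyond 1 numbered 1762 by limma on log2(FPKM + 1), 2468 on log2(FPKM + 0.1) and 1823 without the FPKM filter, against 4338, and the cause was not tested. The mitochondrial median of -0.32 was -0.36 without a filter, -0.25 with at least 10 counts, -0.23 by limma on log2(FPKM + 1) with and without its filter, -0.27 on log2(FPKM + 0.1), and -0.35 to -0.31 with one library left out. The median of all 36 was -0.47 with at least 10 counts. The ratio of summed mitochondrial levels, hypoxia over normoxia, was 0.79 with TMM scaling against 0.82. With 250 bases before the start only, 3 windows held the C/EBP-ATF letters, as the window is shorter. AARS1 changed sign with at least 10 counts (0.034) and without hypoxia replicate 2 (range with one library left out -0.12 to 0.010), and IARS2 with at least 10 counts (0.066), in the limma fits (0.034, 0.035 and 0.034) and without hypoxia replicate 2 (range -0.040 to 0.00057), none of them past the threshold. With the replicate number as a block, 27 became 26 lower genes by the loss of HARS2 (adjusted p = 0.0584). The numbers do not pair the libraries, whose deviations correlated at 0.0175, -0.069 and 0.00122. Of 502 results for single genes over the alternatives, 478 kept their direction and side of the threshold. The standard error was largest for TARS3, which had 70 to 135 counts per library.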
